A study of Danio rerio with 9 samples.

Results

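In the amputated caudal fin of the zebrafish, 1538 short-range chromatin contacts of the uninjured fin were still called at 1 day post amputation (dpa) and were no longer called at 4 dpa. They were taken from the 0 dpa list of called interactions. Each spanned at most 200 kb between the starts of its bins, had a counterpart in the 1 dpa list and had none in the 4 dpa list. A counterpart was a called pair on the same chromosome with both anchor starts within 10 kb. The 1538 contacts were 6.32% of the 24348 contacts of the 0 dpa list that spanned at most 200 kb, and that list held 28421 in all. They were thus chosen by the calls in all 3 lists, and their number and their strengths at 0 and 1 dpa are a description without a test. They are called late-lost contacts below, where lost means not called.

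All fish were wild type adults of the outbred Ekkwill (EK) strain, about 6 to 8 months old, and their caudal fins were cut at 50% of the length. Tissue was taken on the day of the cut (0 dpa, the uninjured state), after 1 day and after 4 days of regeneration, in 3 pools for each time with 10 fish in a pool, or 9 pools in all. HiCAR was applied to their nuclei. In this assay Tn5 transposase inserts an adaptor into open chromatin of cross-linked nuclei, and the adaptor is ligated to DNA ends that lie close by in space, so each molecule joins an accessible site to a neighbour in the nucleus.

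Distal regulatory elements act on promoters through such contacts, and contacts over short distances mostly lie within 1 regulatory neighbourhood. The amputated fin first closes the wound with epidermis. A blastema, a mass of proliferating progenitor cells, then forms beneath it and later drives outgrowth of bone and connective tissue. The fin is a mixture of epidermis, bone-forming cells, fibroblasts, blood cells, nerves and pigment cells. In pooled tissue, fewer cells that hold a contact and a weaker contact in each cell cannot be told apart. The count of a contact in this assay also depends on how accessible its anchors are, for which the lists hold no value.

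The lists held 28421, 18712 and 26988 contacts at 0, 1 and 4 dpa, so the 1 dpa list was 65.8% as long as the 0 dpa list and the 4 dpa list was nearly as long. There was 1 list per time point with no replicate values, so no difference could be set against the spread between pools. Each row gave a contact count and the count expected under the authors' background model. Their ratio, observed over expected, is called strength below. Every called pair had a count of at least 12, a strength above 2 and a false discovery rate (FDR) under 0.01. Singletons, which are pairs without a called pair next to them, all had an FDR under 0.0001. A pair under these limits has no value, so the 4 dpa strength of a late-lost contact is unknown. Sequencing depth is unknown, and all intervals are at the 95% level, treat called pairs as independent and cover counting error alone.

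The late-lost contacts were short. Their median span was 30 kb (interval 30 to 30), with quartiles of 20 and 70 kb, against 70 kb (70 to 70) with quartiles of 30 and 110 kb for the 15452 contacts called at 0, 1 and 4 dpa, called constant contacts here. The late-lost median depended on the matching, and it was 50 kb, against 70 kb for constant contacts, when counterparts had to lie in identical bins. Of the late-lost contacts, 595 (38.7%) spanned 20 kb, the shortest span in the lists, against 14.4% of the constant contacts. The late-lost share of all 0 dpa contacts was 9.89% at 20 kb (9.15 to 10.7) and 9.22% at 30 kb (8.19 to 10.3). It was 6.25% at 40 kb (5.23 to 7.39) and 5.46% at 50 kb (4.43 to 6.66). At each span from 60 to 200 kb it lay between 2.48% and 4.91%. The share was therefore higher at 20 and 30 kb than at 60 kb and above, and beyond 60 kb the intervals overlapped. No list holds a pair under 20 kb, so contacts of 20 and 30 kb had fewer bins in which a counterpart could be called. This bears on the 1 dpa and the 4 dpa match, and its part in these shares was not tested. The late-lost median was the shorter on 25 of 25 chromosomes, at 20 to 45 kb against 50 to 80 kb for constant contacts. The chromosomes share lists and pools and are not replicates.

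**Figure D1:**
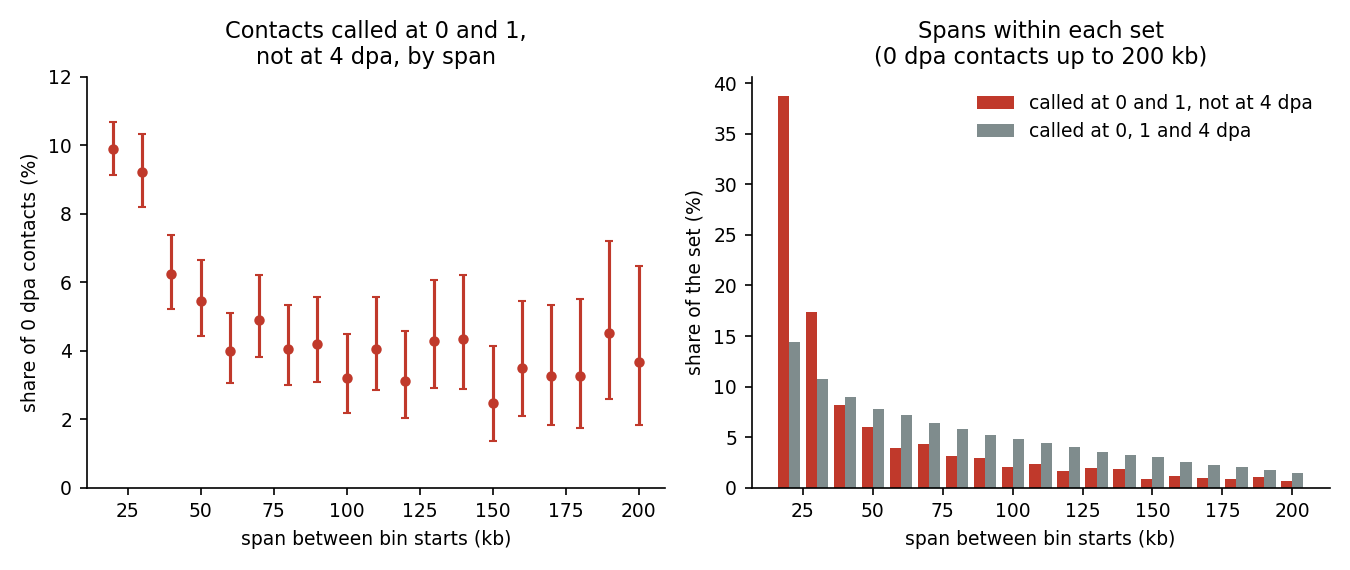
Left, share of 0 dpa contacts called at 1 and not at 4 dpa (%) by span in kb, with exact binomial 95% intervals: it is 9.89% at 20 kb and between 2.48% and 4.91% from 60 to 200 kb. Right, share of each set (%) by span for late-lost contacts (red) and constant contacts (grey): 38.7% of the late-lost and 14.4% of the constant contacts span 20 kb.

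The expected count moved with span and time. For pairs called in identical bins at 0, 1 and 4 dpa, the median expected count at 20 kb was 0.954 times the 0 dpa value at 1 dpa and 1.27 times at 4 dpa, while the observed count was 0.897 and 1.08 times. For spans of 110 to 200 kb the expected count was 0.961 and 1.17 times, and the observed count 0.905 and 1.06 times. In these pairs the expected count was thus higher at 4 dpa than at either earlier time, at 20 kb and at 110 to 200 kb. The values are not scaled for depth, and late-lost contacts have no 4 dpa value. The part of this in the late-lost calls was not tested.

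Contacts of 0 dpa with no 4 dpa counterpart numbered 5906 (24.3%). The late-lost contacts are those of them that were still called at 1 dpa, and the other 4368 were called in the uninjured fin alone. These uninjured-only contacts were shorter still, with a median span of 20 kb (20 to 30). A further 2990 contacts were missing from the 1 dpa list and called again at 4 dpa, with a median span of 40 kb (40 to 40).

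Late-lost contacts were of modest strength before injury. Their median strength at 0 dpa was 3.09 (3.03 to 3.14), against 3.93 (3.90 to 3.96) for constant contacts. It was 3.23 (3.20 to 3.27) for contacts that were missing at 1 dpa and back at 4 dpa, and 2.96 (2.93 to 2.98) for uninjured-only contacts. The median count was nearly the same, 32 in late-lost and 31 in constant contacts, and the expected count was 10.7 against 7.31. Of the late-lost contacts, 250 (16.3%) were under 2.5 times expected and 133 (8.65%) were over 5 times, against 5.33% and 27.4% of constant contacts.

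The lower strength held within spans. At 20 kb the median strength was 2.75 for late-lost and 3.03 for constant contacts, from median counts of 41 and 47. At 30 kb it was 2.77 against 3.11, and at 40 to 50 kb 3.11 against 3.37. At 60 to 100 kb it was 3.54 against 4.07, and at 110 to 200 kb 4.41 against 4.92. The quartiles overlapped in every span class. Uninjured-only contacts were close to late-lost ones within spans, at 2.77 for 20 kb and 4.38 for 110 to 200 kb. Contacts missing at 1 dpa and back at 4 dpa were also close. From the shortest to the longest span class their medians were 2.79, 2.79, 3.04, 3.58 and 4.49.

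**Figure D2:**
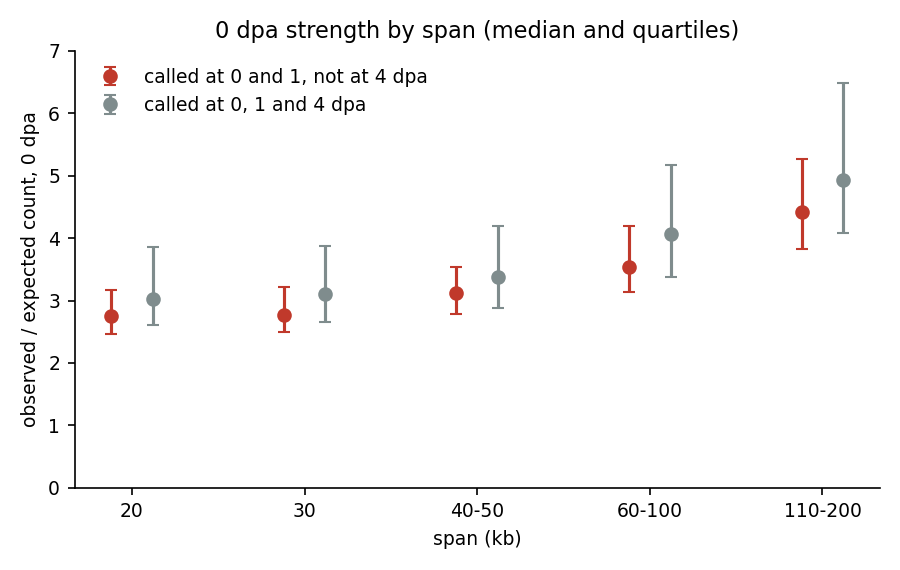
Observed over expected count at 0 dpa by span class in kb for late-lost (red) and constant (grey) contacts, with points for medians and bars for quartiles. The late-lost median is the lower in each of the 5 classes, for example 2.75 against 3.03 at 20 kb, and the quartile ranges overlap.

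A 1 dpa strength in the same bins exists for part of the late-lost contacts. Of the 1538, 884 (57.5%) were called at 1 dpa in the identical bins and 654 (42.5%) in a bin next to at least 1 of their anchors. In the identical bins the median strength was 3.14 at 1 dpa, against 3.17 at 0 dpa, from median counts of 33 and 35. The 1 over 0 dpa ratio of strengths had a median of 0.991 (0.977 to 1.00) and quartiles of 0.883 and 1.11. The 10167 constant contacts in identical bins had a median ratio of 0.939 (0.934 to 0.943). The side of 1 on which the late-lost median lay depended on the scaling, since it was 1.06 with raw counts scaled by their total and 1.05 when centred on all shared pairs. Both sets had to be called at 1 dpa, which limits the fall they can show, and pairs called in a neighbouring bin have no 1 dpa value of their own bins, so these ratios do not show whether late-lost contacts as a whole kept their strength.

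Set side by side by 0 dpa strength, the ratios of late-lost contacts were above those of constant contacts in some classes and below them in others. For contacts of 2.5 to 3 times expected the median ratio was 1.02 in 241 late-lost and 1.03 in 1159 constant contacts. From 2 to 2.5 times it was 1.07 in both sets, and from 3 to 3.5 times it was 0.977 in late-lost and 0.985 in constant contacts. From 3.5 to 4 times it was 0.923 in 106 late-lost and 0.970 in 1391 constant contacts. From 4 to 5 times it was 0.920 in 105 late-lost and 0.928 in 2132 constant contacts. From 5 to 7 times it was 0.909 in 78 late-lost and 0.860 in 2063 constant contacts. Above 7 times it was 0.858 in 36 and 0.836 in 1642. In both sets the ratio was thus higher for weak than for strong contacts. The part in this of grouping by 0 dpa strength and of needing a call at 1 dpa was not tested.

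**Figure D3:**
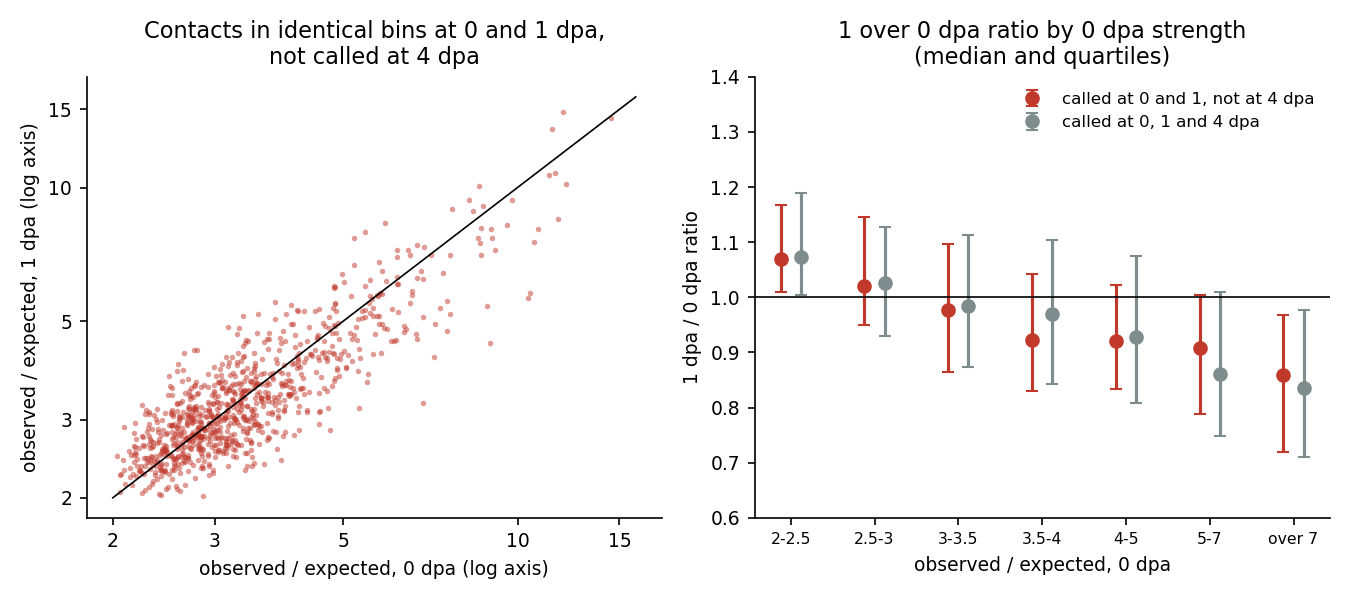
Left, observed over expected count at 1 dpa against 0 dpa on log axes for the 884 late-lost contacts called in identical bins, with the line of equality. Right, the 1 over 0 dpa ratio by 0 dpa strength for late-lost (red) and constant (grey) contacts, medians with quartiles; at 2.5 to 3 times expected the medians are 1.02 and 1.03.

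Few late-lost contacts passed a size limit between 0 and 1 dpa. At 1.5-fold, 7 were higher at 1 dpa (0.792%, against 1.31% of all 11051 contacts in identical bins) and 13 were lower (1.47%, against 6.17% of all). The counting interval of the ratio lay above 1 for 0 of them (0.308% of all) and below 1 for 7 (3.22% of all). The falls are not like for like. Median 0 dpa strength was 3.17 in late-lost contacts and 4.19 in all contacts in identical bins, and a 1 dpa call needed a strength above 2. The late-lost contacts thus had less room for a fall that kept the call. The contact on chromosome 13 between 12250001–12260000 and 12270001–12280000 had the largest ratio, with 34 counts at 1 dpa against 25 at 0 dpa, or 1.59 (0.923 to 2.78). On chromosome 18, between 37010001–37020000 and 37100001–37110000, there were 33 counts at 1 dpa against 24 at 0 dpa, a ratio of 1.56 (0.892 to 2.75). The intervals of these ratios include 1.

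The lowest ratio, 0.476 (0.255 to 0.857), came from chromosome 7 between 44260001–44270000 and 44280001–44290000, with 18 counts at 1 dpa against 37 at 0 dpa. On chromosome 20, the contact between 43500001–43510000 and 43570001–43580000 had 13 counts at 1 dpa against 28 at 0 dpa, a ratio of 0.499 (0.237 to 0.996). On chromosome 15, the contact between 47310001–47320000 and 47490001–47500000 had 18 against 35 counts and a ratio of 0.541 (0.288 to 0.981). For these 3 the counting interval lay below 1. They were picked as the lowest of 884 ratios, and the intervals take no account of that.

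The largest group of late-lost contacts stood in clusters of neighbouring called pairs that were all late-lost. Of the 1538, 670 (43.6%) lay in 275 clusters of the 0 dpa list whose pairs were all late-lost, and 333 (21.7%) were singletons. Another 405 (26.3%) lay in 248 clusters that also held a constant pair, and 130 (8.45%) in 61 clusters with other lost or returning pairs. Singletons made up 6.75% of the constant contacts and 37.7% of the uninjured-only contacts. They made up 21.5% of contacts missing at 1 dpa and back at 4 dpa, near the late-lost share. The clusters lost as a whole were small, with a median size of 2 pairs for their contacts and at most 8. Neighbouring pairs were matched to overlapping sets of bins. A single call, or its absence, can therefore set the class of several pairs of a cluster. How often clusters of the other sets were wholly of a single class was not computed. Late-lost contacts that shared a cluster with a constant pair lay in larger clusters, with a median size of 8 and at most 56. Of these contacts, 93.1% had an anchor in another 4 dpa contact, against 49.1% of those in wholly late-lost clusters. The grouping itself raises the first share. It requires a pair of the same cluster with a 4 dpa counterpart, and pairs of a cluster can share anchor bins.

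The largest wholly late-lost cluster covered chromosome 18 from 35840001 to 35900000, or 60 kb. Its 8 pairs spanned 20 to 50 kb and had 32 to 56 counts each at 0 dpa, 335 in all, at 2.27 to 3.57 times expected. At 1 dpa 5 pairs were called inside it, with 31 to 43 counts and 187 in all, at 2.09 to 3.17 times expected. At 4 dpa none was called inside it. No contact left the block at 0 or 1 dpa, and 2 did at 4 dpa, over 170 and 220 kb to a single bin downstream, at 5.47 and 3.68 times expected with 21 and 15 counts. This block and the next blocks described were picked for holding the most late-lost contacts. The absence of calls inside them at 4 dpa therefore follows largely from the rule. Outside the rule, the 2 longer calls at 4 dpa rest on few counts.

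A block on chromosome 5 from 44650001 to 44720000 held a cluster of 9 pairs, of which 8 were late-lost and 1 was uninjured-only. They had 28 to 46 counts at 0 dpa. At 1 dpa 5 pairs were called inside the block with 25 to 40 counts, and at 4 dpa none. Several of its longer contacts stayed. The pair from the first bin of the block to the bin 110 kb downstream had 49, 31 and 51 counts at 0, 1 and 4 dpa, all at more than 5 times expected. The pair to the bin 120 kb downstream had 43, 35 and 58 counts, at 6.77, 6.19 and 8.06 times expected. At 4 dpa the first bin also had called partners 280 and 290 kb upstream, with 17 and 16 counts, where no partner was called at the earlier times. The absence of calls within the block at 4 dpa follows largely from how it was picked. The calls over 110 to 130 kb from its first bin were present at all times.

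On chromosome 9, a cluster of 7 pairs from 25390001 to 25450000 was wholly late-lost. Its summit, the pair the authors marked as the peak of the cluster, joined 25420001–25430000 and 25440001–25450000 with 106 counts at 0 dpa, 3.36 times expected, the highest count of all late-lost contacts. At 1 dpa this pair had 79 counts, 2.83 times expected, and 3 pairs were called in the block. At 4 dpa none was. From the last bin of the block, the contact with the bin 80 kb downstream had 64, 51 and 57 counts at 0, 1 and 4 dpa, at 6.33, 5.51 and 4.94 times expected. The contacts leaving this block numbered 9, 8 and 4 at the 3 times.

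**Figure D4:**
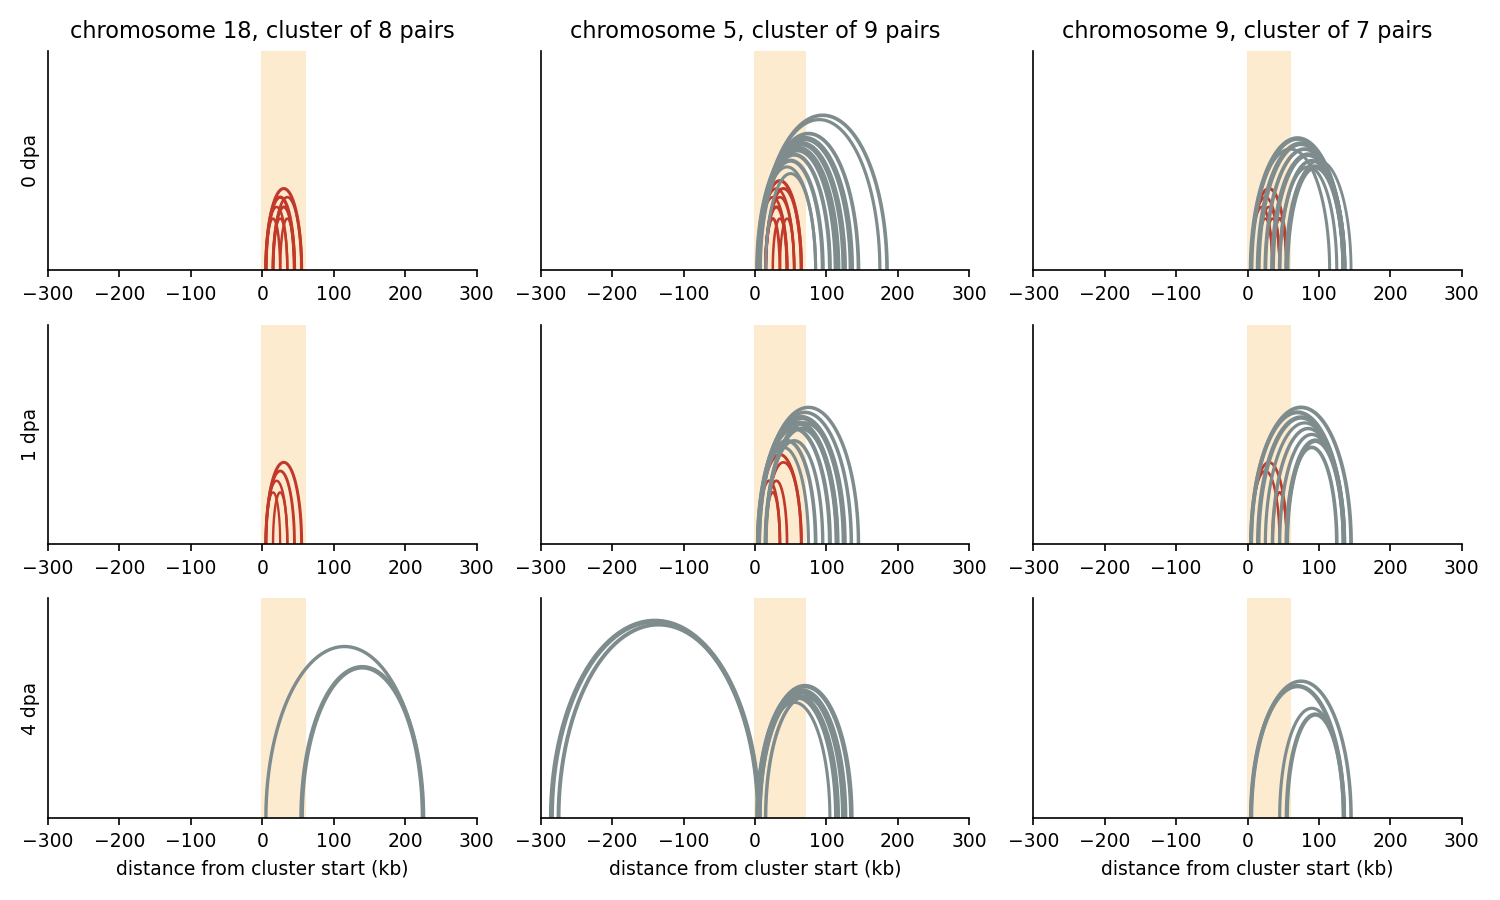
Arcs join the bins of contacts called at 0, 1 and 4 dpa (rows) at the 3 clusters with the most late-lost contacts (columns), against distance from the cluster start in kb; thicker arcs have a higher observed over expected count, and arc height has no unit. Red arcs lie within the shaded cluster, with 8, 9 and 7 called at 0 dpa, 5, 5 and 3 at 1 dpa and none at 4 dpa at chromosomes 18, 5 and 9; grey arcs have 1 end in it, and at 4 dpa 2, 7 and 4 of them are called at the same clusters.

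The anchors of late-lost contacts were often still in contact with other sites at 4 dpa. At least 1 anchor bin was in another called contact for 71.2% of them at 0 dpa (68.9 to 73.5), 60.3% at 1 dpa (57.8 to 62.8) and 61.4% at 4 dpa (59.0 to 63.9). For constant contacts, with their own counterparts left out, the shares were 78.5%, 70.4% and 76.7% at 0, 1 and 4 dpa. Over all spans, the constant contacts had thus nearly the 0 dpa share again at 4 dpa, while the late-lost contacts stayed near their 1 dpa share. Contacts missing at 1 dpa and back at 4 dpa had shares of 66.7%, 53.5% and 65.7%. Neighbouring calls of a cluster share anchor bins, so the rule itself can raise the 1 dpa share of late-lost contacts and lower their 4 dpa share. Its part in these shares was not tested. Uninjured-only contacts, which also lack a 4 dpa counterpart, had lower shares, at 60.6%, 44.7% and 52.1%. A 4 dpa share under the 0 dpa share was thus not particular to late-lost contacts. Of the late-lost contacts, 46.7% had fewer other partners at 4 than at 0 dpa and 14.8% had more, against 40.8% and 23.7% of the constant contacts.

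The shares differed by span. Anchors of 20 kb late-lost contacts were in another contact in 60.8%, 46.4% and 46.9% of cases at 0, 1 and 4 dpa, and those of 20 kb constant contacts in 62.5%, 53.6% and 57.3%. At 40 to 50 kb the shares were 83.0%, 72.9% and 69.7% for late-lost and 80.1%, 71.0% and 76.1% for constant contacts. At 110 to 200 kb they were 82.0%, 75.2% and 80.6% for late-lost contacts and 86.0%, 79.9% and 88.2% for constant contacts. At 4 dpa the late-lost share was lower in 4 of the 5 span classes, and at 30 kb it was 60.4% against 58.9%. The rule used the pair itself and not the other partners of its anchors, though neighbouring calls of 1 cluster share anchors.

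**Figure D5:**
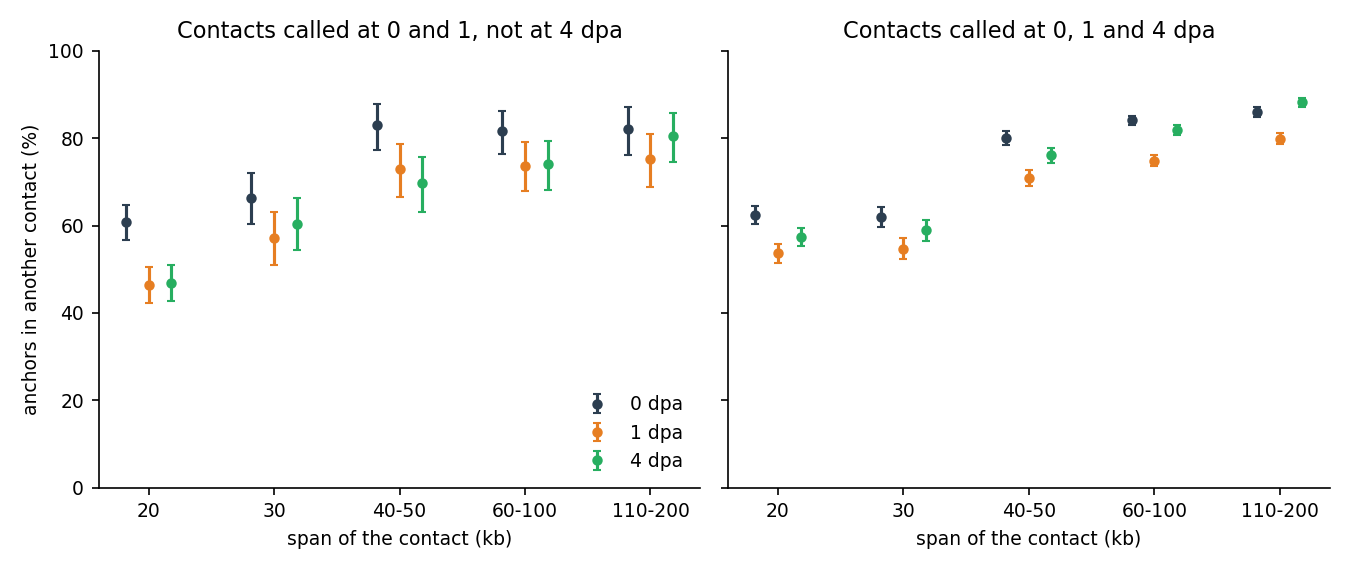
Share of contacts (%) with at least 1 anchor bin in another called contact at 0, 1 and 4 dpa, by span class in kb, for late-lost (left) and constant contacts (right), with exact binomial 95% intervals. At 20 kb the late-lost shares are 60.8%, 46.4% and 46.9% and the constant shares 62.5%, 53.6% and 57.3%.

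More late-lost contacts had an anchor in an old 4 dpa contact than in a new one, as did all 0 dpa contacts of at most 200 kb (65.4% and 19.9%). At 4 dpa, 56.6% of the late-lost contacts had an anchor in a contact that also had a 0 dpa counterpart, against 73.2% of constant contacts, and 16.8% had an anchor in a contact without one, against 20.4%. A longer contact at the same anchor was called at 4 dpa for 52.4% of the late-lost contacts, and a shorter one for 23.3%, against 59.9% and 49.9% of the longer-spanning constant contacts. A contact of 20 kb, the shortest span, can have no shorter one. At spans of 40 kb and more the share with a shorter contact was also lower, at 33.5% of late-lost against 49.7% of constant contacts at 40 to 50 kb, 46.6% against 61.9% at 60 to 100 kb and 60.7% against 76.1% at 110 to 200 kb. At 30 kb it was 16.4% against 14.6%. Uninjured-only contacts were close to late-lost ones in the share with a shorter contact, at 31.0% for 40 to 50 kb, 43.1% for 60 to 100 kb and 58.6% for 110 to 200 kb. At 30 kb theirs was 11.3%. Over all spans, 45.1% of them had an anchor in a contact with a 0 dpa counterpart and 43.5% in a longer contact, both under the late-lost shares. The share with an anchor in a contact without a 0 dpa counterpart was 17.3%, near the late-lost 16.8%.

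The late-lost contacts used 2439 anchor bins, and 533 of these (21.9%) were in more than 1 of them. The 4 bins with the most were each in 5. As they were picked for this, the absence at 4 dpa of those 5 contacts was set by the rule. The bin at 21770001–21780000 of chromosome 15 had 5, 5 and 0 called partners at 0, 1 and 4 dpa. Its partners lay on both sides within 60 kb at 0 dpa and 70 kb at 1 dpa, and their counts summed to 180 and 172. The partners 20 and 30 kb upstream and 60 kb downstream were called at both times, and the other two partners lay in different bins at 0 and 1 dpa. All 5 of its 0 dpa partners were in late-lost contacts, and at 4 dpa this bin had no called partner.

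The bin at 44660001–44670000 of chromosome 5, within the block described above, had 5, 6 and 1 partners. Its single 4 dpa partner lay 110 kb away with 22 counts. The bin at 32070001–32080000 of chromosome 2 had 12, 5 and 1 partners, and it had lost its partners beyond 60 kb by 1 dpa. The partner 60 kb upstream stayed at all times, with 45, 39 and 40 counts at 0, 1 and 4 dpa. The bin at 16590001–16600000 of chromosome 4 had 14, 7 and 5 partners. There the partners at 20, 30 and 40 kb upstream, with 34, 43 and 28 counts at 0 dpa and 38, 39 and 32 at 1 dpa, were not called at 4 dpa. The partners at 50, 60 and 140 kb upstream were called at all times, and that at 50 kb had 62, 45 and 57 counts. At the chromosome 4 anchor the nearest calls were absent at 4 dpa while some more distant ones were kept. At the chromosome 2 anchor calls on both sides of the kept distance were absent. Part of these absences was set by the choice of the anchors, so no pattern of distance is drawn from them.

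Contacts that were kept at the anchors of late-lost contacts were compared between times. The rule did not use their values, but it chose these anchor bins by an absent 4 dpa call. Kept and late-lost contacts can also share a cluster. The rule itself can therefore lower the 4 dpa values at these anchors. Of the 8795 contacts of at most 200 kb called in identical bins at 0, 1 and 4 dpa, 1153 had an anchor bin in common with a late-lost contact. Their median 4 over 0 dpa ratio of strength was 0.863 (0.851 to 0.877), against 0.880 (0.875 to 0.886) for the other 7642. A fall of 1.5-fold or more was seen in 148 of them (12.8%, against 12.1% of all 8795) and an equal rise in 14 (1.21%, against 1.39%). These shares are near the background, so kept contacts at the anchors of late-lost contacts did not stand apart by this count.

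Their observed counts showed a small difference. The median 4 over 0 dpa ratio of counts was 1.00 at these anchors and 1.07 elsewhere, and that of expected counts was 1.17 and 1.21. For spans of 60 to 100 kb the ratio of strengths was 0.849 (0.820 to 0.867) at these anchors and 0.896 (0.881 to 0.906) elsewhere, and for 110 to 200 kb it was 0.876 (0.856 to 0.903) and 0.923 (0.908 to 0.936). At 20, 30 and 40 to 50 kb the intervals overlapped. Between 1 and 0 dpa the ratio over all these spans was 0.928 (0.913 to 0.942) at these anchors and 0.936 (0.930 to 0.942) elsewhere. For 60 to 100 kb it was 0.915 (0.889 to 0.944) and 0.948 (0.935 to 0.960), in the same direction as at 4 dpa but with overlapping intervals. For 110 to 200 kb it was 0.944 in both sets. The sets also differed in span, with medians of 80 kb at these anchors and 60 kb elsewhere. The part in these differences of choosing the anchors by an absent 4 dpa call was not tested.

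The strongest late-lost contacts were mostly singletons at low expected counts. Of the 133 over 5 times expected at 0 dpa, 83 (62.4%) were singletons, against 10.8% of 4232 constant contacts of that strength. Their median count was 22 at a median expected count of 3.43, against 34 and 4.73 for those constant contacts, and both sets had a median span of 100 kb. No other contact was called at either anchor for 55 of them at 0 dpa (41.4%, against 25.1% of those constant contacts) and for 68 at 4 dpa (51.1%, against 25.3%), so most of this gap was present at 0 dpa. Their nearest called 4 dpa pair, by the larger of the distances between left and between right anchors, was 20 to 690 kb away with a median of 70 kb.

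The contact on chromosome 5 between 67210001–67220000 and 67270001–67280000 had the most counts among those named for strength. It had 50 counts at 1 dpa, 9.38 times expected (6.96 to 12.4), and 52 counts at 0 dpa, 9.77 times expected (7.29 to 12.8). It was a singleton with no other contact at its anchors at any time, and the nearest 4 dpa pair was 370 kb away. Its strength was thus nearly equal at 0 and 1 dpa.

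A further 3 isolated pairs had the same form. On chromosome 6, between 41830001–41840000 and 42020001–42030000, there were 31 counts at 1 dpa against 33 at 0 dpa, 10.8 and 11.6 times expected, and the nearest 4 dpa pair was 250 kb away. On chromosome 14, between 51120001–51130000 and 51250001–51260000, there were 30 counts at 1 dpa against 32 at 0 dpa, 10.7 and 11.3 times expected. On chromosome 23, between 7240001–7250000 and 7290001–7300000, there were 35 counts at both times, 8.96 times expected at 1 dpa and 7.70 at 0 dpa. None of their anchors had another contact at any time.

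Near the end of chromosome 25, the contact between 880001–890000 and 1060001–1070000 had the highest strength at 1 dpa among those with at least 20 counts. It had 27 counts at 1 dpa, 14.8 times expected (9.77 to 21.6), against 20 counts at 0 dpa, with an interval of 7.33 to 18.5 times expected. A 4 dpa pair lay 30 kb away. On chromosome 22, the contact between 36730001–36740000 and 36920001–36930000 had 15 counts at 1 dpa against 22 at 0 dpa. A 4 dpa pair lay 20 kb away, just outside the matching limit, and its anchors had 4, 5 and 5 other partners at 0, 1 and 4 dpa. On chromosome 8, the 20 kb contact between 46530001–46540000 and 46550001–46560000 had 25 counts at 1 dpa against 24 at 0 dpa, 9.08 and 8.71 times expected, and its anchors had 4, 3 and 3 other partners.

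The matching limit lay close to many of the contacts. For 537 (34.9%) the nearest 4 dpa pair was 20 kb away and for 229 (14.9%) it was 30 kb away, while 557 (36.2%) had none within 50 kb. For uninjured-only contacts, which also lack a 4 dpa counterpart, these shares were 23.0%, 13.4% and 46.8%. Among contacts with a 1 dpa counterpart, those whose nearest 4 dpa pair was 10 kb away, just outside the rule, had a median count of 25 and a strength of 3.34. Those at 20 kb, just inside it, had a median count of 29 and a strength of 3.14. The median span was 60 kb in the former and 40 kb in the latter, and count and strength differed by span. At the limit on span, 16 contacts at 190 kb and 11 at 200 kb were included, with median strengths of 4.94 and 5.02, and 4 at 210 kb and 6 at 220 kb were not, at 5.77 and 5.76.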

How the data were processed

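HiCAR was carried out on 3 pools per time point. The submitters' processing notes name the aligner BWA and the genome build danRer11. Which caller and background model were applied, which BWA release, and how pools were combined is not given in the sources used here. Per the file headers, each row of the 3 deposited lists holds the contact count of a pair of 10 kb bins, an expected signal (the expected count), an FDR (q-value), a cluster label and size, and a −log10 p of the cluster, which was not used here. The time of each list was taken from its name, which matches the sample titles. Positions are 1-based in danRer11.

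Counterparts, spans, ratios of observed over expected, anchor use and cluster makeup were computed in Python 3.11.15 with numpy 2.4.6, pandas 2.3.3 and scipy 1.17.1. Intervals are exact binomial for shares, exact Poisson for a strength, conditional binomial for a ratio and order-statistic for a median. Matching was tested on simulated lists of pairs placed far apart, which does not test it among neighbouring pairs. Ratio intervals were tested on simulated counts. With 1 list per time, no test across samples was possible.

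The contacts, comparisons and rules were chosen with earlier results of these data known. Named were the 8 strongest contacts at 0 and at 1 dpa (at least 20 counts, 1 per cluster), the 4 largest rises and 4 largest falls, the 4 anchor bins and the 3 clusters with most of them; part of each are described. The planned assignment of genes, with its gene lists and window, was not run, since a danRer11 gene annotation was not used here. For the same reason the tissue label was not checked against marker genes, and no sequence is printed.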

Additional observations from a re-analysis of the deposited data

How the results depend on the processing

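No paired analysis was possible because each time point has a single list in which the 3 pools are not separated, and leaving out a pool was not possible for the same reason. The number of late-lost contacts, 1538, was 976 when every list was limited to an FDR of 0.0001 or less, and between 1204 and 2256 under the other planned settings; with 2 alternatives chosen after seeing the data it was 673 (cluster summits alone) and 1001 (4 dpa matches within 20 kb). Their share of 0 dpa contacts, 6.32%, was 9.27% with identical bins, 5.15% with matches within 20 kb in both lists, 6.73% without singletons and 7.73% with lists of equal length. The median span of 30 kb was 50 kb with identical bins, 40 kb without singletons, 40 kb with no limit on span and 20 kb for summits alone, each time below that of constant contacts under the same setting (70, 70, 80 and 60 kb). The share with an anchor in another 4 dpa contact, 61.4%, was 72.7% with identical bins, 48.5% within 20 kb in both lists, 56.1% at the stricter FDR, 56.7% at a count of at least 20, 57.1% with lists of equal length, 52.0% for summits alone and 45.8% with 4 dpa matches within 20 kb. The median 1 over 0 dpa ratio, 0.991, was 1.06 with raw counts scaled by their total, 1.05 when centred on all shared pairs and 1.05 with the strongest counterpart within 10 kb, so its side of 1 depends on the scaling; the cause was not tested. A wider match removes by construction contacts whose neighbours were called. Unknown depth limits what an absent call means.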

Other observations

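Late-lost contacts were spread over the genome, and some windows held several, where each bin pair of a cluster is counted. Of 1300 windows of 1 Mb that held a 0 dpa contact of at most 200 kb, 599 held a late-lost contact and 80 held 5 or more. The windows below were chosen after their values were seen. On chromosome 5, the window 44000001–45000000 held 12 late-lost among 39 contacts, with 19 constant, 3 returning at 4 dpa and 5 uninjured-only. On chromosome 1, the window 25000001–26000000 held 12 among 43, with 22 constant, and no returning contact. On chromosome 18, the window 35000001–36000000 held 11 among 27, and on chromosome 2 the window 5000001–6000000 held 9 among 17. The windows on chromosomes 5 and 18 include the blocks described above, each a single cluster with 8 late-lost contacts. These counts are thus not separate losses, and clusters per window were not counted. By chromosome, the late-lost share ran from 4.47% on chromosome 12 (3.22 to 6.01) to 8.15% on chromosome 1 (6.54 to 10.0).

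At some anchors a late-lost contact stood beside contacts that were called at 4 dpa and had no 0 dpa counterpart. The examples were chosen after their values were seen. On chromosome 7, the contact between 36040001–36050000 and 36190001–36200000 had 23 counts at 1 dpa against 20 at 0 dpa. Its left anchor had 5, 4 and 10 called partners at 0, 1 and 4 dpa, and 7 of the last had no 0 dpa counterpart, over 250 to 540 kb with 13 to 18 counts each, at 4.40 to 6.47 times expected. Its right anchor had 3, 2 and 0 partners. On chromosome 19, the contact between 26070001–26080000 and 26100001–26110000 had 47 counts at 1 dpa against 45 at 0 dpa. Its anchors had 3 and 3 partners at 0 dpa, 5 and 5 at 1 dpa, and 6 and 5 at 4 dpa. Of the last, 3 and 2 had no 0 dpa counterpart and spanned 270 to 320 kb. The farthest partner of the left anchor lay 100, 300 and 310 kb away at 0, 1 and 4 dpa. For the right anchor it lay 140, 320 and 320 kb away, so partners at about this distance were already called at 1 dpa. Neighbouring bins of 1 cluster can count as several partners.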
